A study of Mus musculus with 17 samples.

Results

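Immortalised bone marrow-derived macrophages (iBMDMs) edited at Jun were compared with cells of the same line that carried a scramble control. The comparison held 4 of the 17 samples of the series, namely 2 libraries labelled JunKO and 2 labelled scramble control (Scramble below, zsGreen in the titles). Its members were chosen by these labels and by a rule on the gene models, which had to span at least 200 bases and to average at least 1 RPKM (reads per kilobase of exon, scaled to the mapped reads of the library) over the 8 iBMDM libraries. Of 24453 gene models in the table, 10414 passed and were tested. The other 4 iBMDM libraries, 2 labelled JunDKO and 2 labelled Atf3KO, entered the fit to estimate the spread between replicates.

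All 8 libraries came from a C57Bl/6EiJ line labelled male, transformed with Myc and BRAF V600E and used at passage 3 to 8. Each received vehicle only, so the comparison is of unstimulated cells. Per the methods of the study the line expressed Cas9, a lentivirus delivered a pair of guides per target, and cells were sorted on the fluorescent protein of that virus. The libraries are therefore of sorted pools that are not described as clones, and unedited cells within a pool cannot be told apart from edited ones. The cells grew in medium with L-cell conditioned medium, a source of macrophage colony-stimulating factor. The 4 libraries of the comparison share the date in their titles with the JunDKO libraries, and 1 Atf3KO library carries a later one. The series design calls replicates biological, and where they shared a culture the p-values measure only the spread between these samples.

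JUN is a subunit of AP-1, a family of basic leucine zipper dimers made from JUN, FOS, ATF and related monomers. JUN can pair with itself or with FOS and ATF proteins, and its dimers bind a short palindrome known as the TPA response element (TRE) or a longer variant with an added base, the cyclic AMP response element (CRE). The JNK kinases phosphorylate JUN and raise its activity. In many cell types AP-1 is known for inducing matrix proteases, cytokines and regulators of the cell cycle, and macrophages hold several of its monomers at the same time. The comparison asks which mRNAs change in macrophages when JUN is edited and the other monomers remain.

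The smallest step between RPKM values gives the depth of a library, which came to 1929988 and 1711542 mapped reads in Scramble and 1704873 and 1713949 in JunKO. The other libraries of the fit had 1553296 and 18444267 mapped reads in JunDKO and 4397160 and 7236869 in Atf3KO. Their spread enters the standard errors and adjusted p-values, and the part of their unlike depth was not tested. Pearson's r between log2 values of replicates, taken over genes, was 0.965 in JunKO, 0.968 in Scramble, 0.974 in JunDKO and 0.9575 in Atf3KO. Of 17 macrophage markers all 17 reached 1 RPKM, with Adgre1, the F4/80 antigen, at 669 and 744 RPKM in Scramble and 634 and 677 RPKM in JunKO. The summed level of this list was 25428 and 23661 RPKM in Scramble and 32685 and 32216 RPKM in JunKO, most of it from the lysozyme gene Lyz2. Without Lyz2 the sums overlapped, at 3908 and 3471 RPKM in Scramble and 4127 and 3685 RPKM in JunKO. Fibroblast markers summed to 1.37 to 4.86 RPKM with the collagen gene Col1a1 at 0, and of the 14 T, B and NK cell markers 10 were at 0 in all 4 libraries. Neutrophil and granulocyte precursor markers summed to 37.5 and 36.5 RPKM in Scramble and 30.4 and 28.5 RPKM in JunKO, from S100a8 and Csf3r, while Mpo, Elane and Ly6g were at 0. S100a8 was at 34.8 and 33.2 RPKM in Scramble and 22.7 and 24.1 RPKM in JunKO, and Csf3r, the receptor of granulocyte colony-stimulating factor, at 2.53 and 3.31 RPKM in Scramble and 7.69 and 4.35 RPKM in JunKO. Dendritic cell markers summed to 4.00 and 3.17 RPKM in Scramble and 0.984 and 0.993 RPKM in JunKO. These were mainly Itgax, the integrin CD11c, at 3.24 and 2.78 RPKM in Scramble and 0.588 and 0.731 RPKM in JunKO (log2 fold change -1.27, limma-trend adjusted p = 0.127), whose groups did not overlap. The part of these lower markers in the results was not tested.

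Jun itself lies on chromosome 4, 95049036 to 95052222, minus strand, of the mm10 (GRCm38) build. Its level was 17.6 and 18.5 RPKM in Scramble and 26.2 and 20.5 RPKM in JunKO. The JunKO libraries were the higher ones, without a difference that passed the test, 0.34 ± 0.36 (SE, n = 2 a group, adjusted p = 0.908, limma-trend). Exonic reads do not check an edit made by guides, because a locus with a shifted reading frame can still be transcribed. The paper's results report that western blotting bore out the efficiency of the knockouts. They also report a substantial loss of Jun binding by ChIP-seq in Jun knockout iBMDMs. Neither experiment is analysed here, and the groups are named by their labels.

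Few genes differed clearly between JunKO and Scramble. The coagulation factor gene F13a1, the gelatinase gene Mmp9, the acute phase genes Saa3 and Hp and the chemokine gene Pf4 were higher in JunKO, by 1.93 to 3.60 on the log2 scale. The serpin gene Serpinb9b, the cytokine gene Il1f9 and the elastase gene Mmp12 were lower, with log2 fold changes of -3.15 to -2.48. Genes of DNA replication and mitosis lay above Scramble by small amounts nearly throughout, without a call in the fit of all 8 libraries, while the protease lists together centred near 0. Across all models the difference was small. The median log2 fold change of JunKO over Scramble was 0.01, on a scale of log2(RPKM + 1) that understates changes of low genes, and the middle 50% of models lay between -0.19 and 0.22. Replicates within a group differed by as much. The standard deviation over models was 0.38 for JunKO against Scramble, 0.45 between the JunKO replicates and 0.44 between the Scramble replicates, and differences of at least 2-fold were seen in 2.16%, 3.67% and 3.20% of models. The group difference averages 2 libraries on each side, which narrows it against a difference of single libraries. Among the 4094 models at 16 RPKM or more in either group the standard deviations were 0.35 between groups, 0.35 between JunKO replicates and 0.36 between Scramble replicates. In these models 78 were past 2-fold between groups (1.91%), 37 between JunKO replicates (0.904%) and 44 between Scramble replicates (1.07%).

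A gene counted as called where its limma-trend adjusted p was below 0.05, the difference was 2-fold or more and one of the group means reached 16 RPKM, limits taken from the study. This held for 28 of 10414 models (0.269%), 15 higher (0.144%) and 13 lower (0.125%) in JunKO. The balance depended on the test, with 7 higher and 14 lower by limma-voom on recovered reads and 15 higher and 19 lower at a pseudocount of 5. The adjusted p alone was below 0.05 in 38 models (0.365%), and the 10 that were not called missed only the RPKM limit. An unadjusted p under 0.05 was met by 467 models on the higher side (4.48%) and 380 on the lower side (3.65%). Both JunKO libraries lay above both Scramble libraries in 2019 models (19.4%) and below them in 1916 (18.4%).

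**Figure D1:**
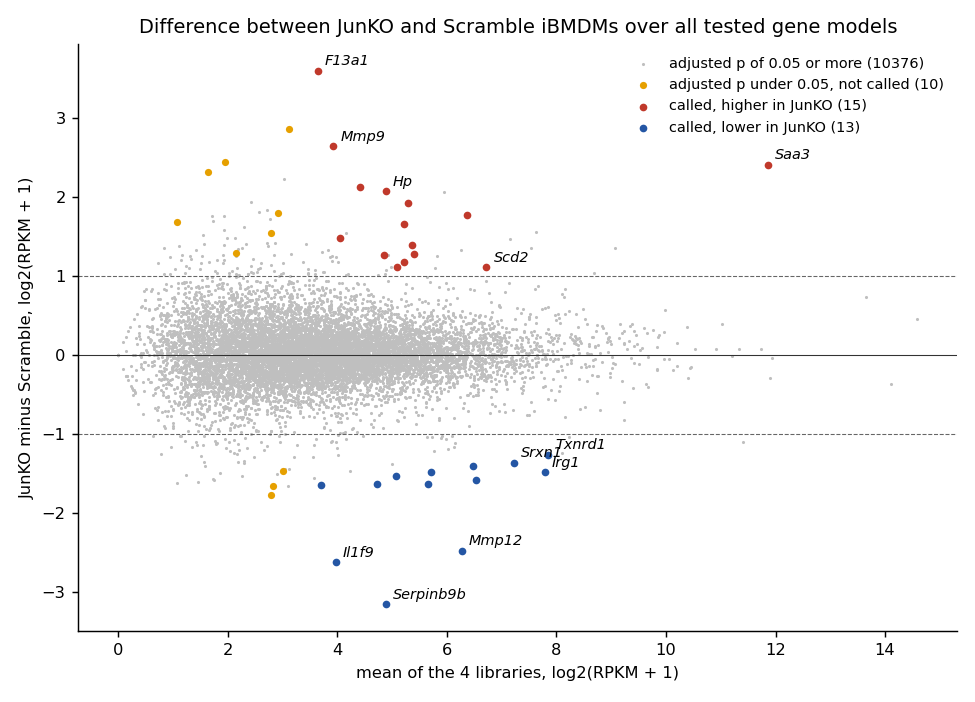
Each point is a tested gene model, with the mean of the 4 libraries on the horizontal axis and the difference of JunKO minus Scramble on the vertical axis, both as log2(RPKM + 1). Most of the 10414 models lie between the dashed lines at a 2-fold change, and the 28 called genes (red and blue) lie outside them, from F13a1 at 3.60 to Serpinb9b at -3.15.

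A fit without 1 of the 4 compared libraries keeps 1 sample in a group and 3 residual degrees of freedom in place of 4. Calls can then be lost through lower power whichever library is removed, and the part of a particular library was not tested. The number of calls fell when 1 of these 4 or a JunDKO library was left out, and not when an Atf3KO library was. Without JunKO replicate 1 it was 5, without JunKO replicate 2 it was 3, without Scramble replicate 1 it was 7 and without Scramble replicate 2 it was 4, while leaving out either JunDKO library gave 9. F13a1 and Saa3 kept their calls in each of 22 alternative analyses. Mmp12 kept its call in 21 of them and Il1f9 in 19. The other 24 genes each lost the call on removal of any one of at least 3 of the 4 libraries, and 0 of the 28 changed direction in these alternatives. Of the 28 calls 5 were kept in the fit of the 4 libraries alone (F13a1, Saa3, Mmp12, Il1f9 and Lyz1), 10 with no filter on low values, 10 with a replicate block and 18 with limma-voom. All 28 were kept with a replicate block without Atf3KO, which gave 70 calls. The same held for a crossed replicate block, added after the data were seen, which gave 57. The losses given beside single genes are those from leaving out a library unless another analysis is named, and the ranges of adjusted p cover all alternatives, limma-voom among them.

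Promoters of called genes were searched for the elements that JUN dimers bind, the TRE (TGACTCA or TGAGTCA) and the CRE (TGACGTCA), neither of which contains the other, on both strands. The sequences are RefSeq's for GRCm38.p6, each running from 250 bases before the start site to 50 after it, and 20 of the 28 called genes matched an entry, at the start of their model in the table. Of 11 genes called lower with an entry, 3 held a TRE and 1 a CRE, against 3.33% and 3.40% of 8069 tested models with an entry. Of 9 genes called higher with an entry, 0 held either element. The promoters with an element are shown because they are the called genes where such a sequence lies in this window. The paper describes this motif as shared among AP-1 family members, so it does not mark JUN in particular. A match describes letters and is not a measured binding site, and no match says only that these letters were not in this window. Capitals mark the TRE or CRE, all sequences run 5′ to 3′ on the gene's strand, and each spans 300 bases.
Mmp12 (chr9:7347124-7347423, plus strand): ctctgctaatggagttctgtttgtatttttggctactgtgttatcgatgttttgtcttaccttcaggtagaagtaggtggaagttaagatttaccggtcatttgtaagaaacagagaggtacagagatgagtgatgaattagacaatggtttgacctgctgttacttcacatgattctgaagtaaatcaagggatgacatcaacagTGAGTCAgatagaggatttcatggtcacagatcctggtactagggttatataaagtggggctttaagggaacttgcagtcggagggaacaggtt
Srxn1 (chr2:152105274-152105573, plus strand): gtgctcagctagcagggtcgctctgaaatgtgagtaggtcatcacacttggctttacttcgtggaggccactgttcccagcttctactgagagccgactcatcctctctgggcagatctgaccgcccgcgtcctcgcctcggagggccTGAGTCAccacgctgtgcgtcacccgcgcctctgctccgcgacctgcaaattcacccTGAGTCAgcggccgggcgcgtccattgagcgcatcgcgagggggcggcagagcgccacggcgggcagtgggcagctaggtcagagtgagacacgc
Procr (chr2:155750967-155751266, plus strand): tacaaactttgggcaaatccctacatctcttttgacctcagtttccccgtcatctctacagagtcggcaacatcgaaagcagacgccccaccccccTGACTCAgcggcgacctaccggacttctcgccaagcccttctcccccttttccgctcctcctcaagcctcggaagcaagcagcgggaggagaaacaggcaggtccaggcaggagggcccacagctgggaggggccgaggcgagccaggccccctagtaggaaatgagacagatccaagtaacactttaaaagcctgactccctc
Mturn (chr6:54681374-54681673, plus strand): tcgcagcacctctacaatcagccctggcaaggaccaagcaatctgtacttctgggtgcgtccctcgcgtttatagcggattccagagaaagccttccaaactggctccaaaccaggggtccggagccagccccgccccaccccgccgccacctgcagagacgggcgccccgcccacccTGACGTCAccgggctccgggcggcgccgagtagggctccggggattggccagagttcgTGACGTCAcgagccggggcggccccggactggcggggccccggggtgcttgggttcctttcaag

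The TRE of Mmp12 began 44 bases before the start site. Those of Srxn1 began 102 and 45 bases before it, that of Procr 154 bases before it, and the 2 CREs of Mturn 72 and 14 bases before it. All 4 genes were called lower in JunKO, and their values follow with their groups. Over all 32851 RefSeq promoters of this length 5.2% held a TRE and 1.79% a CRE.

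Among secreted proteins the acute phase and antimicrobial genes were on the higher side. All 8 tested members of that list had a log2 fold change above 0, with a median of 0.76 against 0.01 over all models. Of these 3 were called higher, against 0.144% of all models. Saa3, serum amyloid A3, an acute phase apolipoprotein that macrophages make, measured 1175 and 1172 RPKM in Scramble and 5958 and 6570.2 RPKM in JunKO. It rose by 2.41 ± 0.19 (SE, n = 2 a group, adjusted p = 0.000849, limma-trend) on the log2 scale, and its JunKO libraries lay far above those of Scramble, though reads may be shared with other serum amyloid genes. Haptoglobin (Hp), which captures free haemoglobin, measured 12.0 and 8.73 RPKM in Scramble and 48.7 and 44.5 RPKM in JunKO, a rise of 2.08 ± 0.22 (SE, n = 2 a group, adjusted p = 0.0057, limma-trend). Lyz1, a lysozyme that digests bacterial cell walls, measured 37.0 and 35.7 RPKM in Scramble and 124 and 129 RPKM in JunKO and rose by 1.77 ± 0.25 (SE, n = 2 a group, adjusted p = 0.0247, limma-trend). Reads of Lyz1 can be shared with its near-identical neighbour Lyz2, which measured 21520.2 and 20189.8 RPKM in Scramble and 28558 and 28531 RPKM in JunKO and was not called (0.45, limma-trend adjusted p = 0.768). Lcn2, a siderophore-binding protein, and Slpi, a protease inhibitor of the same list, had log2 fold changes of 0.16 and 0.33 and adjusted p of 0.976 and 0.907. The Hp call was lost without Scramble replicate 2, without either JunKO library and in the fit of the 4 libraries (adjusted p over all alternatives 0.00138 to 0.0908), and the Lyz1 call without any of the 4 libraries (0.00586 to 0.249).

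Coagulation and plasminogen genes split. Of 10 tested members 4 were above 0 and 6 below it (median -0.16), and 1 was called on each side. Over all models 0.144% were called higher and 0.125% lower. F13a1 (chromosome 13, 36867178 to 37050244, minus strand) encodes the A subunit of factor XIII, which cross-links fibrin, and is a marker of alternatively activated macrophages. It measured 1.22 and 0.609 RPKM in Scramble and 24.0 and 20.1 RPKM in JunKO, from 13 reads in both Scramble libraries and 289 in both JunKO libraries together. Its rise of 3.60 ± 0.24 (SE, n = 2 a group, adjusted p = 0.000641, limma-trend) was the largest of the called genes. Procr, the endothelial protein C receptor, measured 137 and 121 RPKM in Scramble and 52.1 and 44.4 RPKM in JunKO and fell, with a log2 fold change of -1.40 ± 0.22 (SE, n = 2 a group, adjusted p = 0.0363, limma-trend). Plaur, the urokinase receptor, measured 36.6 and 29.5 RPKM in Scramble and 20.3 and 17.7 RPKM in JunKO. Both JunKO libraries of Plaur lay below those of Scramble, but the difference did not pass the test (-0.76, limma-trend adjusted p = 0.373). The Procr call was lost without any of the 4 libraries (adjusted p over all alternatives 0.0053 to 0.277).

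Complement genes had the highest median of the secreted lists, 0.94 over 8 tested members, of which 7 were above 0 and 0 passed the test. The subunits of C1q, the recognition molecule of the classical pathway, had like differences. C1qa measured 82.7 and 64.6 RPKM in Scramble and 251 and 166 RPKM in JunKO, a log2 fold change of 1.47 ± 0.29 (SE, n = 2 a group, adjusted p = 0.0983, limma-trend). C1qb measured 371 and 238 RPKM in Scramble and 892 and 654 RPKM in JunKO, with 1.36 ± 0.27 (SE, n = 2 a group, adjusted p = 0.0933, limma-trend). C1qc measured 119.5 and 86.3 RPKM in Scramble and 308 and 224 RPKM in JunKO, with 1.36 ± 0.28 (SE, n = 2 a group, adjusted p = 0.103, limma-trend). None of the 3 passed in the fit of all 8 libraries, although their groups did not overlap. In other alternatives they were called, C1qa in 2 of 22 (adjusted p over all alternatives 0.000771 to 0.529), C1qb in 3 (0.00122 to 0.529) and C1qc in 3 (0.000573 to 0.555). They lie next to each other on chromosome 4 and are known to be transcribed together. C3, the central component, was at 175 and 157 RPKM in Scramble and 144 and 121 RPKM in JunKO (-0.32, limma-trend adjusted p = 0.737). Cfp, properdin, which stabilises the alternative pathway, measured 149.9 and 148 RPKM in Scramble and 249.8 and 182 RPKM in JunKO (0.52, limma-trend adjusted p = 0.663).

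Matrix and lipid transport genes had a median of 0.00 over 15 tested members, with 7 above and 7 below 0. Lox, lysyl oxidase, which cross-links collagen and elastin, measured 124 and 151 RPKM in Scramble and 39.9 and 50.9 RPKM in JunKO and was the member that fell (-1.58 ± 0.23 SE, n = 2 a group, adjusted p = 0.0247, limma-trend). Its call was lost without any of the 4 libraries (adjusted p over all alternatives 0.0111 to 0.299). Gas6, a ligand of receptors for the uptake of dying cells, measured 45.1 and 39.9 RPKM in Scramble and 126 and 92.9 RPKM in JunKO (1.33, limma-trend adjusted p = 0.0683), and was called in 7 of 22 alternatives (adjusted p 0.00205 to 0.459). Spp1, osteopontin, was among the most abundant mRNAs at 10342 and 8932 RPKM in Scramble and 17020.4 and 15025 RPKM in JunKO (0.73, limma-trend adjusted p = 0.408). Apoc2, the activator of lipoprotein lipase, measured 8.21 and 8.23 RPKM in Scramble and 24.8 and 17.5 RPKM in JunKO and missed the threshold (1.24, limma-trend adjusted p = 0.0649), with a call in 4 of 22 alternatives (adjusted p 0.00742 to 0.917). Growth factors and colony-stimulating factors had a median of -0.04 over 11 members and 0 calls. Its largest difference was that of Gdf15, a stress-induced cytokine, at 2.40 and 1.08 RPKM in Scramble and 17.4 and 7.56 RPKM in JunKO, below the RPKM limit and short of the test (2.24, limma-trend adjusted p = 0.193), although the groups did not overlap. Igf1, insulin-like growth factor 1, measured 103 and 122 RPKM in Scramble and 86.2 and 99.6 RPKM in JunKO, and Pdgfb, a platelet-derived growth factor chain, measured 24.7 and 17.7 RPKM in Scramble and 15.6 and 9.55 RPKM in JunKO (-0.73, limma-trend adjusted p = 0.595). Grn, progranulin and the most abundant of them, measured 306 and 248 RPKM in Scramble and 382 and 276 RPKM in JunKO (0.24, limma-trend adjusted p = 0.901).

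Taken over all 5 secreted lists, 52 of 126 genes were tested, with 31 above and 20 below 0 and a median of 0.24. This median rested on single libraries, at 0.062 without JunKO replicate 1 and 0.067 without Scramble replicate 2. Of the 52 tested genes 4 were called higher (Saa3, Hp, Lyz1 and F13a1) and 2 lower (Procr and Lox), against 0.144% and 0.125% of all models. The JunKO libraries lay above both Scramble libraries in 19 of 52 (36.5%, against 19.4% of all models) and below them in 12 (23.1%, against 18.4%).

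**Figure D2:**
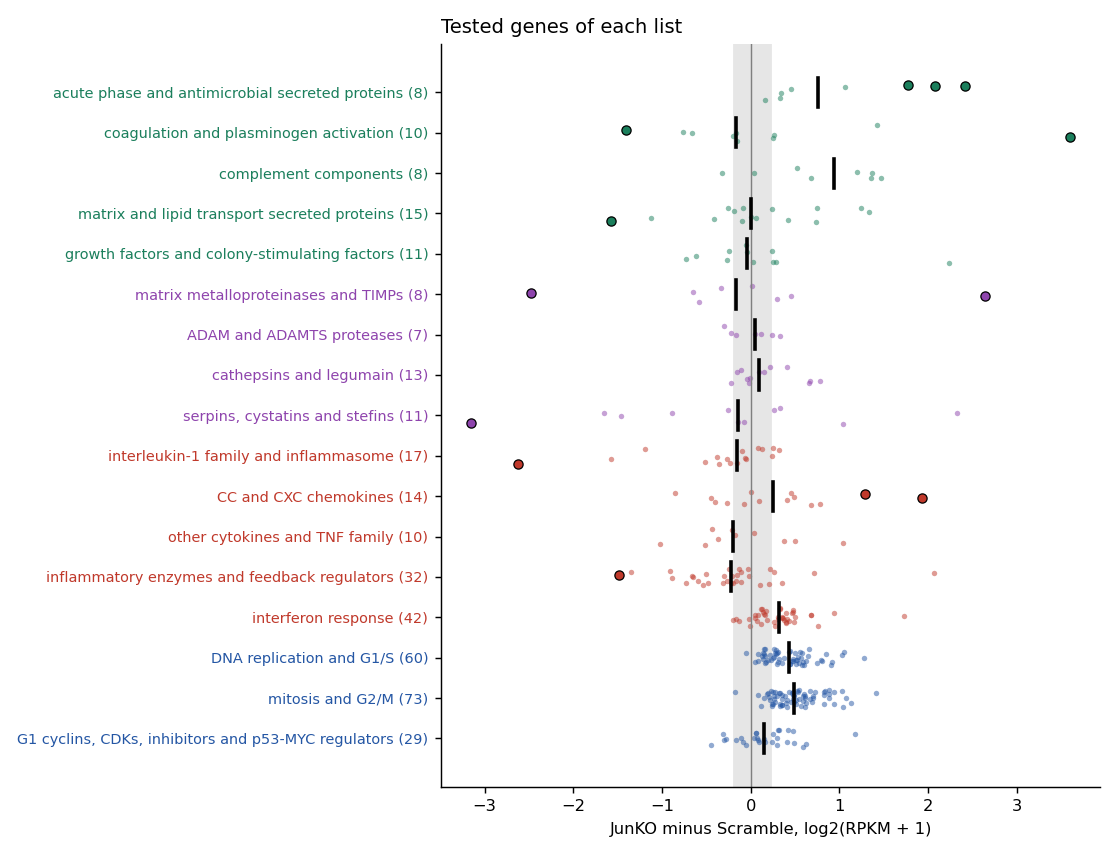
Points are tested genes of each fixed list at their log2 fold change of JunKO over Scramble, with called genes outlined and the number tested in parentheses. Black bars are list medians and the grey band holds the middle 50% of all tested models. The lists of DNA replication (0.43) and mitosis (0.48) lie almost wholly right of 0, while protease lists centre near 0 with single genes far from it.

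The protease lists had medians near 0 and single genes far on each side. Matrix metalloproteinases and their inhibitors had 8 tested members, 4 above and 4 below 0. Mmp9, gelatinase B, which degrades basement membrane collagen and gelatin, measured 2.30 and 4.25 RPKM in Scramble and 26.7 and 23.5 RPKM in JunKO. It rose by 2.65 ± 0.31 (SE, n = 2 a group, adjusted p = 0.012, limma-trend), from 37 reads over the Scramble libraries to 271 over the JunKO libraries. Mmp12, macrophage elastase, lies on chromosome 9, 7347374 to 7360461, plus strand. Its level was 119 and 142 RPKM in Scramble and 21.2 and 23.7 RPKM in JunKO and fell, with a log2 fold change of -2.48 ± 0.23 (SE, n = 2 a group, adjusted p = 0.00263, limma-trend). The Scramble libraries of Mmp12 were more than 5-fold above the JunKO libraries, and removing Scramble replicate 2 was the one alternative that ended its call (adjusted p over all alternatives 0.000496 to 0.0633). That of Mmp9 was lost without Scramble replicate 1 or either JunKO library and in the fit of the 4 libraries (0.00116 to 0.136). Mmp19 and the inhibitor Timp2 had log2 fold changes of 0.29 and 0.02, neither past the test (limma-trend adjusted p = 0.864 and 0.995).

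Protease inhibitors held genes on both sides. Of 11 tested serpins, cystatins and stefins 7 were below 0 (median -0.15), 1 was called lower and 1 more fell below the RPKM limit. Over all models 0.125% were called lower. Serpinb9b, an intracellular serpin of a clade that mice have expanded, measured 54.8 and 48.1 RPKM in Scramble and 8.25 and 2.73 RPKM in JunKO. Its log2 fold change of -3.15 ± 0.43 (SE, n = 2 a group, adjusted p = 0.0247, limma-trend) was the lowest of all tested models, from 361 reads in Scramble to 36 in JunKO, and reads may be shared with its paralogs. Serpinb9 measured 25.1 and 28.1 RPKM in Scramble and 7.27 and 11.0 RPKM in JunKO (-1.47, limma-trend adjusted p = 0.125), and was called in 3 of 22 alternatives (adjusted p 0.017 to 0.555). Serpine2, protease nexin 1, an inhibitor of thrombin and plasminogen activators, fell from 10.1 and 9.43 RPKM in Scramble to 2.30 and 2.57 RPKM in JunKO (-1.65, limma-trend adjusted p = 0.0386, over all alternatives 0.012 to 0.283). Stfa2, a stefin that inhibits cysteine proteases, had 0 reads in both Scramble libraries and 2 and 4 reads in JunKO, at least 2.13-fold higher against a floor of 3 reads over the group. It was listed at 0 in the JunDKO and Atf3KO libraries too and passed the filter of 1 RPKM through JunKO alone, so its adjusted p supports nothing. Stfa3 of the same cluster measured 243 and 294 RPKM in Scramble and 506 and 604 RPKM in JunKO and did not pass (1.04, limma-trend adjusted p = 0.51). The Serpinb9b call was lost without JunKO replicate 2 or either Scramble library (adjusted p over all alternatives 0.00217 to 0.207).

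Cathepsins, the lysosomal proteases, had a median of 0.09 over 13 tested members with 0 calls. Ctsd, cathepsin D, was the most abundant at 2554 and 2213 RPKM in Scramble and 2402 and 2299 RPKM in JunKO. Lgmn, legumain, an asparaginyl endopeptidase, measured 235 and 171 RPKM in Scramble and 375 and 315 RPKM in JunKO, the largest difference of the list (0.78, limma-trend adjusted p = 0.252). Ctsc, cathepsin C, which activates granule proteases, measured 17.4 and 19.7 RPKM in Scramble and 28.4 and 32.0 RPKM in JunKO (0.67, limma-trend adjusted p = 0.362). Its groups did not overlap, and Ctsl and Ctsz had log2 fold changes of 0.41 and -0.23 (limma-trend adjusted p = 0.612 and 0.93). ADAM and ADAMTS proteases, which shed membrane proteins, ranged from -0.30 to 0.33 over 7 members, with 0 calls. Over the 4 protease lists 39 of 89 genes were tested, 19 above and 20 below 0, with a median of -0.01.

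**Figure D3:**
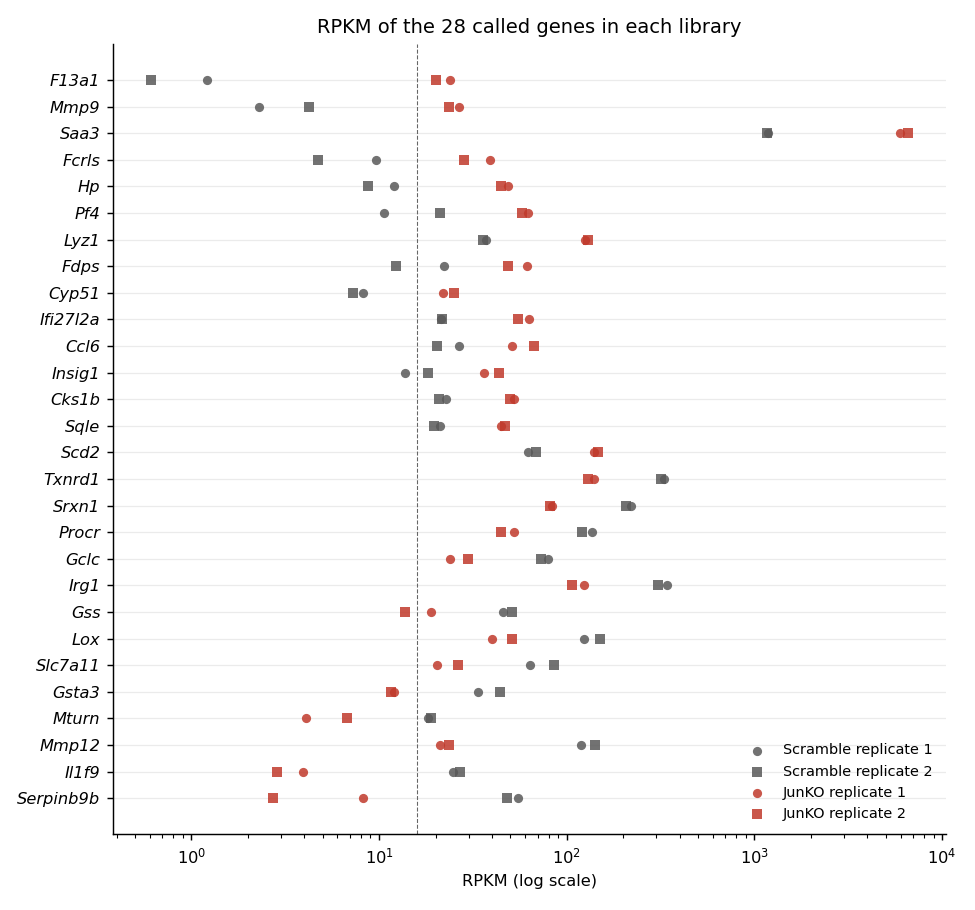
RPKM on a log scale of the 28 called genes in the 4 libraries, ordered by log2 fold change. Grey symbols are Scramble and red symbols JunKO, circles replicate 1 and squares replicate 2, and the dashed line marks 16 RPKM. The 2 groups do not overlap in any of the 28 genes, from F13a1 at the top to Serpinb9b at the bottom, but the genes were called on these same libraries. Over all tested models both JunKO libraries lay above both Scramble libraries in 19.4% and below them in 18.4%.

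Inflammatory genes lay on both sides of 0, by class. The interleukin-1 family and inflammasome list had 17 tested members, 12 of them below 0 (median -0.15). Il1f9, interleukin-36 gamma, an agonist cytokine of the family, measured 24.6 and 27.1 RPKM in Scramble and 3.93 and 2.85 RPKM in JunKO. It fell, with a log2 fold change of -2.62 ± 0.25 (SE, n = 2 a group, adjusted p = 0.00337, limma-trend), from 154 reads over the Scramble libraries to 19 over the JunKO libraries. Il1rn, the antagonist of the interleukin-1 receptor, measured 89.5 and 87.6 RPKM in Scramble and 33.5 and 43.5 RPKM in JunKO and missed the threshold (-1.19 ± 0.21 SE, n = 2 a group, adjusted p = 0.0649, limma-trend), though it was called in 6 of 22 alternatives (adjusted p 0.0139 to 0.417). Nlrp3, the sensor of the best known inflammasome, measured 33.2 and 31.5 RPKM in Scramble and 25.9 and 19.1 RPKM in JunKO and Casp1, its protease, 87.3 and 113 RPKM in Scramble and 62.1 and 92.9 RPKM in JunKO, neither past the test (limma-trend adjusted p = 0.577 and 0.878). The Il1f9 call was lost without JunKO replicate 2 or Scramble replicate 2 and with limma-voom on recovered reads (adjusted p over all alternatives 0.00086 to 0.0672).

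Inflammatory enzymes and feedback regulators lay mostly below 0, with 25 of 32 tested members (median -0.22) and 1 call. Over all models 0.125% were called lower. Irg1, which makes itaconate from an intermediate of the citric acid cycle, measured 342 and 305 RPKM in Scramble and 124 and 106 RPKM in JunKO and fell (-1.48 ± 0.21 SE, n = 2 a group, adjusted p = 0.0247, limma-trend). Ptgs2, cyclooxygenase 2, was low at 5.47 and 6.57 RPKM in Scramble and 1.45 and 2.10 RPKM in JunKO (-1.34, limma-trend adjusted p = 0.122). The Irg1 call was lost without any of the 4 libraries (adjusted p over all alternatives 0.00163 to 0.209).

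Chemokines held 2 called genes, both higher, against 0.144% of all models called higher. Of 14 tested members 9 lay above 0 (64.3%, against 51.0% of all models) and 5 below it, with a median of 0.25. Pf4, platelet factor 4 or CXCL4, which macrophages also make, measured 10.7 and 21.0 RPKM in Scramble and 62.4 and 58.0 RPKM in JunKO and rose by 1.93 ± 0.27 (SE, n = 2 a group, adjusted p = 0.0247, limma-trend). Ccl6, a constitutive chemokine of mouse macrophages, measured 26.8 and 20.4 RPKM in Scramble and 50.9 and 67.3 RPKM in JunKO and rose by 1.29 ± 0.22 (SE, n = 2 a group, adjusted p = 0.046, limma-trend). Ccl7, which attracts monocytes, measured 22.8 and 30.9 RPKM in Scramble and 45.8 and 47.0 RPKM in JunKO (0.78, limma-trend adjusted p = 0.352), and Cxcl10, an interferon-induced attractant of T cells, measured 38.8 and 31.5 RPKM in Scramble and 53.1 and 60.3 RPKM in JunKO (0.68, limma-trend adjusted p = 0.305). Both groups were apart for Ccl7 and Cxcl10 without a call. Ccl9, the most abundant chemokine mRNA, measured 137 and 164 RPKM in Scramble and 204 and 218 RPKM in JunKO (0.49, limma-trend adjusted p = 0.644). The Ccl6 call, the least stable of the 28, held in 5 of 22 alternatives (adjusted p over all alternatives 0.0182 to 0.418) and was lost without any of the 4 libraries. That of Pf4 was lost without either JunKO library or Scramble replicate 1 (0.00832 to 0.217). Other cytokines and the TNF family had a median of -0.20 over 10 members and 0 calls, with Tnf at 23.6 and 33.7 RPKM in Scramble and 19.6 and 19.1 RPKM in JunKO (-0.52, limma-trend adjusted p = 0.598). Mif, macrophage migration inhibitory factor, was the most abundant of these at 102 and 62.8 RPKM in Scramble and 169.9 and 75.5 RPKM in JunKO (0.50, limma-trend adjusted p = 0.865).

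Interferon response genes lay on the higher side by small amounts. Of 42 tested members 37 were above 0, with a median of 0.32, and 26 (61.9%) had both JunKO libraries above both Scramble libraries, against 19.4% of all models. Of these members 8 had an unadjusted p under 0.05 (limma-trend) and 0 passed after adjustment. Bst2, tetherin, which holds budding virus at the cell surface, was the most abundant at 212 and 226 RPKM in Scramble and 322 and 288 RPKM in JunKO (0.48, limma-trend adjusted p = 0.542). Oasl2, a member of the oligoadenylate synthetase family, measured 44.1 and 39.0 RPKM in Scramble and 59.4 and 58.8 RPKM in JunKO (0.50, limma-trend adjusted p = 0.556). Ifi27l2a, an interferon-induced gene that was on none of the fixed lists, measured 21.5 and 21.7 RPKM in Scramble and 62.8 and 54.8 RPKM in JunKO and rose by 1.40 ± 0.20 (SE, n = 2 a group, adjusted p = 0.0247, limma-trend). Its call was lost without any of the 4 libraries (adjusted p over all alternatives 0.006 to 0.413), and its short model can share reads with its neighbour Ifi27. Over the 5 inflammatory lists 114 of 171 genes were tested, 61 above and 53 below 0, with a median of 0.06. This median was 0.030 without Scramble replicate 2 and 0.089 at a mean of at least 4 RPKM.

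Proliferation genes lay on the higher side nearly throughout. Of 162 tested genes 152 (93.8%) had a log2 fold change above 0, against 51.0% of all models, and the median was 0.41. Both JunKO libraries lay above both Scramble libraries in 103 of them (63.6%, against 19.4%) and below in 3 (1.85%, against 18.4%). An unadjusted p under 0.05 (limma-trend) was met by 47, all on the higher side, and 0 passed after adjustment over all models in this fit. Members were called in some alternatives, Rrm2 in 3 of 22, Tk1 in 2 and Birc5 in 1.

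DNA replication and G1/S genes had 59 of 60 members above 0 and a median of 0.43. Rrm2, the regulated subunit of ribonucleotide reductase, measured 11.7 and 10.2 RPKM in Scramble and 21.4 and 25.6 RPKM in JunKO (1.03 ± 0.19 SE, n = 2 a group, adjusted p = 0.078, limma-trend). Tk1, thymidine kinase 1, measured 7.41 and 7.91 RPKM in Scramble and 21.2 and 13.6 RPKM in JunKO (1.06 ± 0.24 SE, n = 2 a group, adjusted p = 0.147, limma-trend). Pcna, the sliding clamp of DNA polymerases, was the most abundant at 167 and 173 RPKM in Scramble and 196 and 226 RPKM in JunKO and differed less (0.31 ± 0.18 SE, n = 2 a group, adjusted p = 0.761, limma-trend). The JunKO libraries of all 3 lay above those of Scramble. Gins1 and Gins2, subunits of the replicative helicase complex, had log2 fold changes of 0.92 and 0.90 (limma-trend adjusted p = 0.382 and 0.435).

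Mitosis and G2/M genes had 72 of 73 members above 0 and a median of 0.48. Birc5, survivin, a subunit of the chromosomal passenger complex, measured 15.6 and 20.0 RPKM in Scramble and 30.4 and 48.3 RPKM in JunKO (1.08 ± 0.28 SE, n = 2 a group, adjusted p = 0.213, limma-trend). Aurkb, the kinase of that complex, measured 10.1 and 7.47 RPKM in Scramble and 18.9 and 16.4 RPKM in JunKO (0.94 ± 0.24 SE, n = 2 a group, adjusted p = 0.196, limma-trend). Top2a, topoisomerase II alpha, which untangles chromosomes, measured 32.6 and 34.1 RPKM in Scramble and 51.6 and 58.6 RPKM in JunKO (0.71 ± 0.25 SE, n = 2 a group, adjusted p = 0.447, limma-trend). Tubb4b, a tubulin gene and the most abundant member, overlapped between groups at 120.3 and 72.6 RPKM in Scramble and 135 and 83.5 RPKM in JunKO (0.18, limma-trend adjusted p = 0.943), and its sign turned without JunKO replicate 1 or Scramble replicate 2. Cks1b, a cofactor of cyclin-dependent kinases that was on none of the fixed lists, measured 22.7 and 21.0 RPKM in Scramble and 52.3 and 49.7 RPKM in JunKO and rose by 1.19 ± 0.20 (SE, n = 2 a group, adjusted p = 0.0419, limma-trend). Leaving out any of the 4 libraries ended that call (adjusted p over all alternatives 0.00921 to 0.364), and pseudogenes of Cks1b can take reads from it.

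G1 cyclins, CDKs, their inhibitors and p53 and MYC regulators were more mixed, with 21 of 29 above 0 and a median of 0.15. Cdk4, which drives cells out of G1, measured 99.3 and 75.2 RPKM in Scramble and 131 and 101 RPKM in JunKO (0.41, limma-trend adjusted p = 0.727). Cdkn1a, the inhibitor p21 and the most abundant member, measured 219 and 179.8 RPKM in Scramble and 238 and 179.8 RPKM in JunKO and overlapped between groups (0.06, limma-trend adjusted p = 0.978). Its sign turned without JunKO replicate 1 or Scramble replicate 2. Cdk6 had a log2 fold change of -0.30 and Ccnd3, cyclin D3, one of 0.30 (limma-trend adjusted p = 0.826 and 0.909). Myc, which the line carries as a transgene, had -0.06, and reads of the transgene that align to the mouse gene were not separated here.

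**Figure D4:**
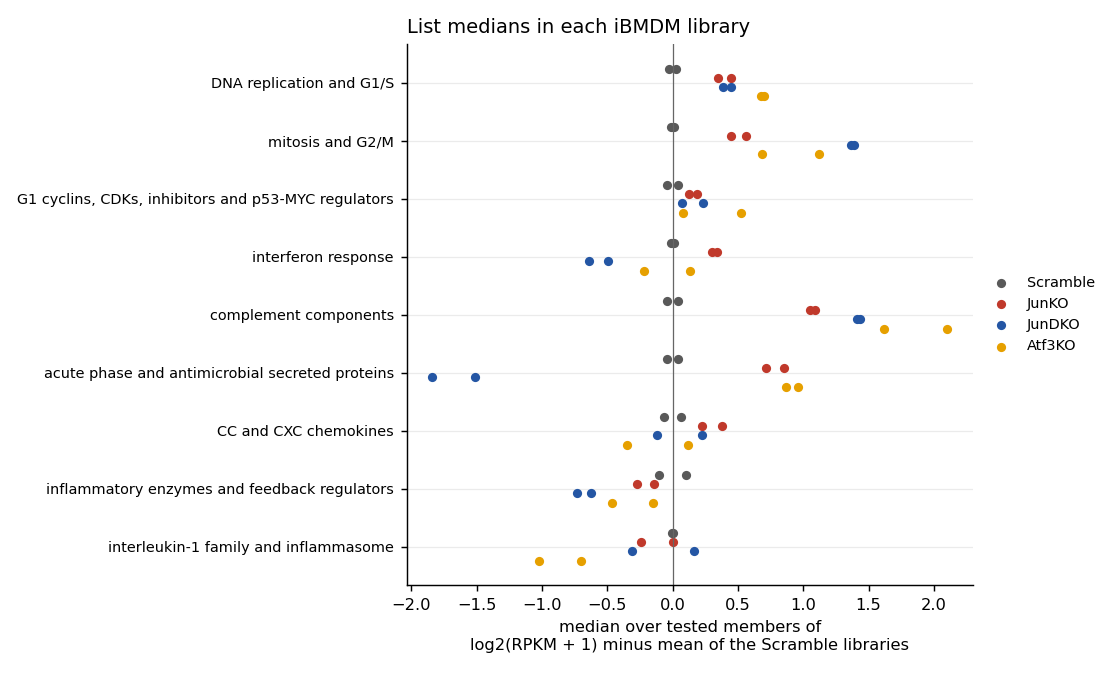
For 9 lists, each point is a library at the median over tested members of log2(RPKM + 1) minus the mean of the 2 Scramble libraries, which centres Scramble on 0. The JunKO libraries of the replication list sit at 0.45 and 0.35 and those of the mitosis list at 0.44 and 0.57, while for the interferon list they sit at 0.30 and 0.34 and those of JunDKO at -0.49 and -0.64 (0.24 and 0.23 over all tested models, not drawn).

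In the mitosis, replication, interferon and acute phase lists both JunKO medians lay above both of Scramble. For the mitosis list the library medians were 0.44 and 0.57 in JunKO, 1.37 and 1.39 in JunDKO and 1.12 and 0.69 in Atf3KO, and for the replication list they were 0.45 and 0.35, 0.45 and 0.38, and 0.70 and 0.67. Over all tested models the same library medians were 0.03 and -0.0026 in JunKO, 0.24 and 0.23 in JunDKO and 0.07 and 0.06 in Atf3KO, so the JunDKO values stand against an offset of that size. The 3 knockouts share the Scramble libraries, so their values are set side by side only. For the interferon list JunKO was at 0.30 and 0.34, JunDKO at -0.49 and -0.64 and Atf3KO at 0.13 and -0.22. For the acute phase list JunKO was at 0.71 and 0.85, JunDKO at -1.84 and -1.51 and Atf3KO at 0.86 and 0.96.

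Of the 28 called genes 15 were on none of the fixed lists, and the grouping of these genes was made after their values were seen. Among the genes called lower, 6 encode proteins of glutathione and thioredoxin metabolism. Slc7a11, the cystine importer that feeds glutathione synthesis, measured 63.9 and 85.4 RPKM in Scramble and 20.4 and 26.5 RPKM in JunKO (-1.63 ± 0.26 SE, n = 2 a group, adjusted p = 0.0355, limma-trend). Gclc, the catalytic subunit of the first and limiting enzyme of that synthesis, measured 79.8 and 72.5 RPKM in Scramble and 23.9 and 29.6 RPKM in JunKO (-1.48 ± 0.22 SE, n = 2 a group, adjusted p = 0.0282, limma-trend). Gss, glutathione synthetase, which performs the next step, measured 46.0 and 51.3 RPKM in Scramble and 19.0 and 13.8 RPKM in JunKO (-1.53 ± 0.23 SE, n = 2 a group, adjusted p = 0.0268, limma-trend). In all 3 both JunKO libraries were more than 2-fold below the lower Scramble library. Gsta3, a glutathione transferase, measured 33.8 and 44.1 RPKM in Scramble and 12.0 and 11.5 RPKM in JunKO (-1.63 ± 0.23 SE, n = 2 a group, adjusted p = 0.0247, limma-trend), and reads may be shared within its family. Txnrd1, thioredoxin reductase 1, measured 329.7 and 318 RPKM in Scramble and 139 and 129 RPKM in JunKO (-1.26 ± 0.18 SE, n = 2 a group, adjusted p = 0.0247, limma-trend). Srxn1, sulfiredoxin, which restores oxidised peroxiredoxins and whose promoter held 2 TREs, measured 221 and 207 RPKM in Scramble and 83.8 and 81.2 RPKM in JunKO (-1.36 ± 0.17 SE, n = 2 a group, adjusted p = 0.0158, limma-trend). Srxn1 and Txnrd1 had nearly equal replicates in each group. All 6 calls ended on removal of any of the 4 libraries of the comparison. Nqo1, a quinone reductase, fell from 7.38 and 12.1 RPKM to 1.90 and 2.27 RPKM, below the RPKM limit (-1.77, limma-trend adjusted p = 0.0386, over all alternatives 0.017 to 0.555).

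Among the genes called higher, 4 encode proteins of sterol synthesis and its control and 1 an enzyme of fatty acid synthesis. Fdps, farnesyl diphosphate synthase, measured 22.3 and 12.3 RPKM in Scramble and 61.4 and 48.7 RPKM in JunKO (1.66 ± 0.26 SE, n = 2 a group, adjusted p = 0.0361, limma-trend). Sqle, squalene epoxidase, measured 21.2 and 19.7 RPKM in Scramble and 44.4 and 46.9 RPKM in JunKO (1.12 ± 0.17 SE, n = 2 a group, adjusted p = 0.0321, limma-trend). Cyp51, the sterol demethylase further down the pathway, measured 8.24 and 7.27 RPKM in Scramble and 21.9 and 25.0 RPKM in JunKO (1.48 ± 0.20 SE, n = 2 a group, adjusted p = 0.0247, limma-trend). The JunKO libraries of these enzymes were more than 2-fold above the higher Scramble library. Leaving out either JunKO library or Scramble replicate 2 ended the Fdps call, and any of the 4 ended those of Sqle, Cyp51, Insig1 and Scd2. Insig1, a sterol sensor that holds the SREBP factors in check and is itself their target, measured 13.7 and 18.1 RPKM in Scramble and 36.2 and 43.3 RPKM in JunKO (1.27 ± 0.20 SE, n = 2 a group, adjusted p = 0.0363, limma-trend). Scd2, a stearoyl-CoA desaturase, measured 62.5 and 68.9 RPKM in Scramble and 139.9 and 147 RPKM in JunKO (1.11 ± 0.17 SE, n = 2 a group, adjusted p = 0.0311, limma-trend). Pmvk, phosphomevalonate kinase, and Fads2, a fatty acid desaturase, rose below the RPKM limit. Pmvk measured 2.13 and 3.00 RPKM in Scramble and 9.05 and 9.60 RPKM in JunKO (1.54 ± 0.22 SE, n = 2 a group, adjusted p = 0.0247, limma-trend), and its adjusted p ran from 0.0111 to 0.453 over all alternatives. Fads2 went from 1 read in Scramble to 28 in JunKO, a ratio of 29.8 per mapped read (95% exact interval 4.93 to 1220, counting error only), with an adjusted p of 0.0129 to 0.229 over the 21 alternatives in which it was tested.

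The last 2 called genes were Fcrls and Mturn. Fcrls, an Fc receptor-like scavenger molecule of myeloid cells, measured 9.68 and 4.72 RPKM in Scramble and 38.8 and 28.3 RPKM in JunKO and rose by 2.13 ± 0.30 (SE, n = 2 a group, adjusted p = 0.0247, limma-trend). Mturn, maturin, whose promoter held 2 CREs, measured 18.2 and 19.0 RPKM in Scramble and 4.09 and 6.71 RPKM in JunKO and fell (-1.64 ± 0.27 SE, n = 2 a group, adjusted p = 0.0419, limma-trend). The Mturn call ended without any of the 4 libraries, and that of Fcrls without either JunKO library or Scramble replicate 2. Below the RPKM limit Mrc1, the mannose receptor CD206 of alternatively activated macrophages, measured 1.18 and 0.995 RPKM in Scramble and 14.0 and 14.3 RPKM in JunKO and rose by 2.86 ± 0.22 (SE, n = 2 a group, adjusted p = 0.000814, limma-trend). Cx3cr1, the fractalkine receptor, measured 11.5 and 10.1 RPKM in Scramble and 3.44 and 3.11 RPKM in JunKO and fell (-1.46 ± 0.22 SE, n = 2 a group, adjusted p = 0.0282, limma-trend), with an adjusted p of 0.00724 to 0.249 over all alternatives. The ion exchanger gene Slc9a9 (1.80, limma-trend adjusted p = 0.0247, over all alternatives 0.00921 to 0.25) and the GTPase regulator gene Arhgap19 (1.30, limma-trend adjusted p = 0.0426, over all alternatives 0.0217 to 0.319) were higher as well. Bcl2a1a, an anti-apoptotic gene with near-identical copies, had 0 reads in Scramble and 3 in each JunKO library, at least 2.13-fold higher against the same floor. It would not have passed the filter of 1 RPKM without its JunKO values either. In libraries of bulk RNA, a change in the share of cells that express a gene and a change in RNA per cell cannot be told apart. Of the 17 macrophage markers 8 lay above and 9 below 0 with a median of -0.06, and 0 passed the test. Their summed level was higher in both JunKO libraries through Lyz2, and the part of the cells' makeup in the result was not tested. Aif1, the actin-binding protein IBA1, measured 31.7 and 36.5 RPKM in Scramble and 69.8 and 78.9 RPKM in JunKO (1.10 ± 0.20 SE, n = 2 a group, adjusted p = 0.0688, limma-trend) and was called in 5 of 22 alternatives (adjusted p 0.00411 to 0.41).

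None of the AP-1 monomer genes tested was called. Of 15 monomer genes 10 were tested, 6 above and 4 below 0, with a median of 0.08 and 0 at an adjusted p under 0.05 (limma-trend), with 1 at an unadjusted p under 0.05. Atf4, a stress-responsive partner of AP-1 proteins, was among the most abundant at 73.0 and 76.7 RPKM in Scramble and 104 and 98.5 RPKM in JunKO and had the largest difference among those at 16 RPKM (0.43 ± 0.18 SE, n = 2 a group, adjusted p = 0.567, limma-trend). Atf3 overlapped between groups at 80.7 and 77.4 RPKM in Scramble and 74.4 and 80.3 RPKM in JunKO (-0.03, limma-trend adjusted p = 0.984), as did Junb at 55.0 and 39.1 RPKM in Scramble and 42.1 and 42.9 RPKM in JunKO (-0.12, limma-trend adjusted p = 0.976). Jund, another JUN family member, measured 9.19 and 8.33 RPKM in Scramble and 11.6 and 9.74 RPKM in JunKO (0.26, limma-trend adjusted p = 0.949). Among the FOS partners Fos measured 5.46 and 5.60 RPKM in Scramble and 6.74 and 6.71 RPKM in JunKO and Fosl2 6.37 and 6.58 RPKM in Scramble and 4.41 and 3.98 RPKM in JunKO (0.24 and -0.53, limma-trend adjusted p = 0.941 and 0.715). Atf2, Atf7 and Jdp2 had log2 fold changes of -0.22, 0.11 and 0.05, and Fosb, Fosl1, Batf, Batf2 and Batf3 were under 1 RPKM on average and not tested. Genes of the JNK pathway upstream of JUN had a median of 0.19 over 13 members, 0 of them at an unadjusted p under 0.05 (limma-trend). Map2k7, a kinase that activates JNK, measured 19.5 and 14.8 RPKM in Scramble and 16.3 and 9.82 RPKM in JunKO and Mapk9, JNK2, 16.7 and 19.3 RPKM in Scramble and 13.1 and 15.4 RPKM in JunKO.

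JunKO was set beside the other knockouts of the line by direct contrasts, whose differences do not use the Scramble libraries and whose errors come from the fit of all 8 libraries. JunKO differed from JunDKO in 389 called genes (3.74% of tested models) and from Atf3KO in 1017 (9.77%), against the 28 from Scramble. Of the 28 called genes 16 were called between JunKO and JunDKO and 8 between JunKO and Atf3KO. The JunKO libraries that chose the 28 enter these contrasts too, so the counts are a description. Leaving out either JunDKO library lowered the first count to 223 or 220, and leaving out JunKO replicate 2 lowered the second to 636.

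Against Scramble, 22 of the 28 called genes lay on the same side in JunDKO as in JunKO, and 27 did in Atf3KO. Of the 28, 17 in JunDKO and 19 in Atf3KO were farther from Scramble than in JunKO. The 3 knockouts share the 2 Scramble libraries, so these counts are a description too. Mmp9 was highest in JunKO, with 0.611 and 0.326 RPKM in JunDKO and 1.08 and 0.525 RPKM in Atf3KO. JunKO exceeded JunDKO by 4.16 ± 0.31 (SE, n = 2 a group, adjusted p = 4.09e-05, limma-trend) and Atf3KO by 3.87 ± 0.31 (SE, n = 2 a group, adjusted p = 8.07e-05, limma-trend) on the log2 scale. Saa3 measured 88.3 and 109 RPKM in JunDKO, under Scramble, and 3573 and 3599 RPKM in Atf3KO, between Scramble and JunKO. JunKO exceeded JunDKO by 5.98 ± 0.19 (SE, n = 2 a group, adjusted p = 2.46e-07, limma-trend). Hp followed the same order between JunKO and JunDKO (1.93 and 1.99 RPKM in JunDKO, 4.01 ± 0.22 SE, n = 2 a group, adjusted p = 7.44e-06, limma-trend) and was higher still in Atf3KO at 88.7 and 110.1 RPKM. F13a1 was above JunKO in JunDKO, at 84.4 and 101 RPKM, and near it in Atf3KO, at 31.7 and 23.6 RPKM. The difference of JunKO minus JunDKO for F13a1 was -2.02 ± 0.24 (SE, n = 2 a group, adjusted p = 0.000865, limma-trend).

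Among genes called lower, Mmp12 measured 3.40 and 3.33 RPKM in JunDKO and 8.35 and 5.54 RPKM in Atf3KO, both under JunKO. JunKO exceeded them by 2.42 ± 0.23 (SE, n = 2 a group, adjusted p = 0.000194, limma-trend) and 1.58 ± 0.23 (SE, n = 2 a group, adjusted p = 0.00121, limma-trend). Slc7a11 was at 0.629 and 0.877 RPKM in JunDKO, and Lox at 0.288 and 0.0120 RPKM, both far below JunKO. Irg1 measured 4.49 and 3.13 RPKM in JunDKO and 47.4 and 40.0 RPKM in Atf3KO. These genes were thus at an intermediate level in JunKO, between Scramble and JunDKO. Sqle measured 43.5 and 41.2 RPKM in JunDKO and 42.9 and 42.3 RPKM in Atf3KO, all above Scramble, and JunKO minus JunDKO was 0.10 ± 0.17 (SE, n = 2 a group, adjusted p = 0.731, limma-trend). Gclc measured 23.6 and 32.0 RPKM in JunDKO, with a difference of -0.05 ± 0.22 (SE, n = 2 a group, adjusted p = 0.916, limma-trend). Cx3cr1 ran opposite, at 45.9 and 48.0 RPKM in JunDKO against 3.44 and 3.11 RPKM in JunKO and 11.5 and 10.1 RPKM in Scramble (-3.49 ± 0.22 SE, n = 2 a group, adjusted p = 1.71e-05, limma-trend, JunKO minus JunDKO).

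**Figure D5:**
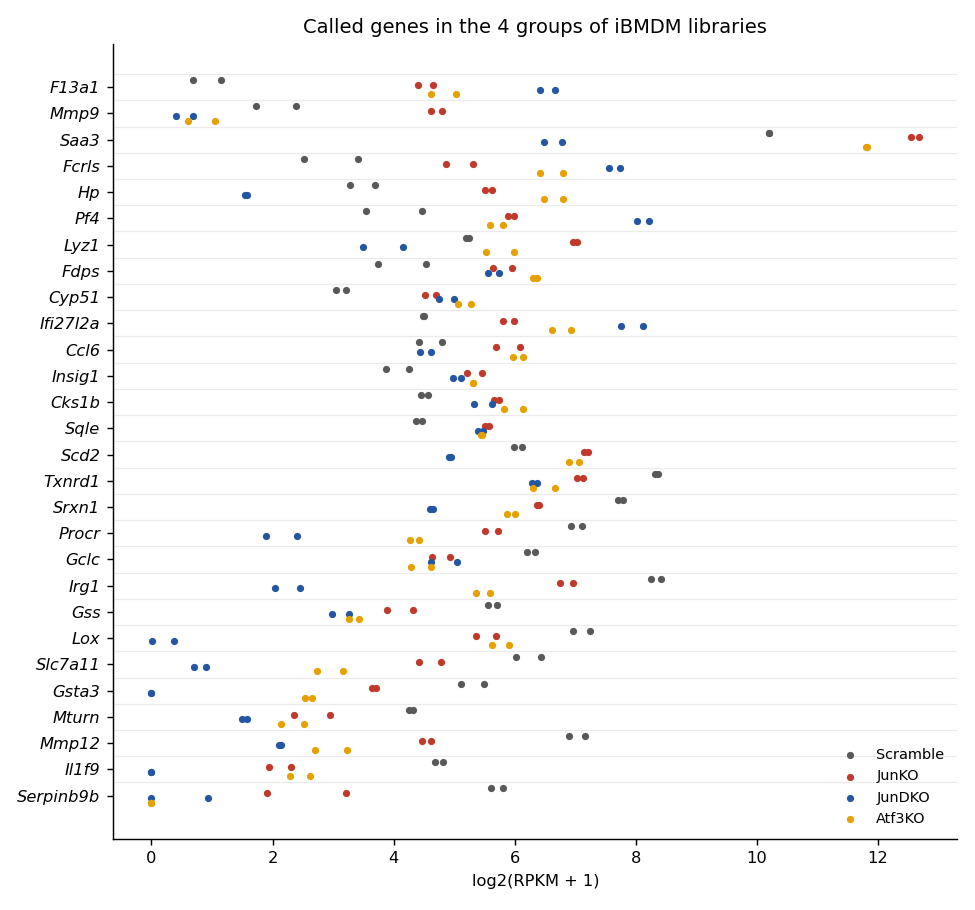
The 28 called genes as log2(RPKM + 1) in each of the 8 iBMDM libraries, coloured by group and ordered by the change in JunKO. JunKO (red) lies between Scramble (grey) and JunDKO (blue) for Lox, Slc7a11, Irg1 and Mmp12, and Mmp9 stands high in JunKO alone. The genes were chosen on JunKO against Scramble.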

How the data were processed

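RNA-seq of poly(A) RNA was analysed from 2 JunKO and 2 Scramble iBMDM libraries, with 4 JunDKO and Atf3KO libraries in the same fit. The authors aligned reads with STAR to mm10 and deposited exon RPKM per gene model made with HOMER. Tool versions and the strand setting of the counting are not given in the sources used here. The authors' differential test used edgeR on unnormalised reads, which are not used here, so the RPKM values were tested as log2(RPKM + 1) with limma-trend (limma 3.58.1, R 4.3.3), with group as the only term, 4 residual degrees of freedom and Benjamini-Hochberg adjustment over 10414 models. Whole reads were recovered from the RPKM steps (within 0.05 of a whole number) for depth, floors of 3 reads, 95% exact intervals and a limma-voom alternative. Intervals and floors cover counting error only. The 2 replicates a group and 1704873 to 1929988 reads in each of the 4 compared libraries limit the precision.

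The members and the gene lists (547 genes in 17 lists) were chosen with earlier results of these data known. Genes named are the AP-1 monomers, those with an adjusted p under 0.05 and, in each list, the 4 members at 16 RPKM or more with the largest difference and the most abundant one. C3, Gdf15, Itgax, Lcn2, Myc, Ptgs2, Gclm, Cat, Gsr and Hmgcs1 were named after their values were seen. Some genes are not reported here. Alternatives changed the pseudocount, filter, scaling, libraries in the fit, replicate block, test and call limits. The scripts were tested on simulated data.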

Additional observations from a re-analysis of the deposited data

How the results depend on the processing

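The count of 28 genes called between JunKO and Scramble moved by more than 1.5 times with no filter on low values (10), in a fit of the 4 libraries alone (6) and at a fold change of at least 4 (8), and ranged from 3 to 34 when 1 of the 8 libraries was left out. Under the pseudocounts 0.25 and 5, a mean of at least 4 RPKM, equal library medians, quantile normalisation, a fit without Atf3KO, limma-voom on recovered reads, array weights and short models kept it was between 21 and 42. Neither labels nor methods state that replicate numbers pair the samples. Deviations of same-numbered replicates correlated over genes at 0.29 between JunKO and Scramble, 0.25 between JunKO and JunDKO and -0.29 between JunKO and Atf3KO. A replicate block gave 10 calls, a replicate block without Atf3KO 70, and a crossed replicate block, added after the data were seen, 57. In the replicate block without Atf3KO the proliferation genes Rrm2, Tk1 and Birc5 were called, with limma-trend adjusted p of 0.0231, 0.0452 and 0.00921, the lowest of their ranges of adjusted p over all alternatives (up to 0.478, 0.804 and 0.742). The 389 calls of JunKO against JunDKO became 736 with no minimum RPKM and 107 at a fold of at least 4, with 220 to 290 when a library was left out. The 1017 against Atf3KO became 2615 and 123, with 636 to 1399. The cause was not tested, beyond the limits that the call rule itself sets.

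The median log2 fold change of the secreted lists went from 0.24 to 0 with no filter on low values, that of the protease lists from -0.0063 to -0.095 and that of the inflammatory lists from 0.057 to 0. The inflammatory median was 0.089 at a mean of at least 4 RPKM and 0.028 with equal library medians. The proliferation median of 0.41 was 0.44 and 0.29 with pseudocounts 0.25 and 5, 0.41 at a mean of at least 4 RPKM, 0.38 with equal library medians, 0.40 after quantile normalisation and 0.46 with limma-voom. Leaving out 1 library gave 0.062 to 0.33 (secreted), -0.049 to 0.060 (protease), 0.030 to 0.069 (inflammatory) and 0.39 to 0.43 (proliferation). Among the genes named by the rule given above, those whose small difference turned sign when 1 library was left out were Adam8 (-0.23 to 0.33), Alox5ap (-0.36 to 0.097), Atf2 (-0.51 to 0.069), Atf3 (-0.086 to 0.021), Atf7 (-0.043 to 0.26), Cdkn1a (-0.14 to 0.26), Ctsd (-0.12 to 0.086), Ctsz (-0.55 to 0.095), Junb (-0.36 to 0.12), Mif (-0.084 to 1.08), Tgfb1 (-0.33 to 0.23), Timp2 (-0.027 to 0.060, and -0.013 with equal library medians) and Tubb4b (-0.18 to 0.54). None of these 13 was called. The signs of C3, Gdf15, Lcn2, Myc, Ptgs2, Gclm, Cat, Gsr and Hmgcs1 were not followed over the alternatives. Depth limits low genes most, since 1 read is worth over 0.5 RPKM in a model of 1 kilobase.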

Other observations

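Of the called genes on no fixed list, 6 and 5 fell into classes that were then listed from general knowledge after their values were seen, so the counts that follow are descriptions without a test. Of 47 genes of glutathione and thioredoxin metabolism and NRF2 targets, 40 were tested and 36 lay below 0 in JunKO against Scramble, with a median log2 fold change of -0.60 against 0.01 over all models. Both JunKO libraries lay below both Scramble libraries in 27 (67.5%, against 18.4% of all models). Beyond the called members, Gclm, the modifier subunit of glutamate-cysteine ligase, measured 359 and 405 RPKM in Scramble and 143 and 181 RPKM in JunKO (-1.24 ± 0.22 SE, n = 2 a group, adjusted p = 0.0548, limma-trend). Cat, catalase, measured 423 and 383 RPKM in Scramble and 204 and 188 RPKM in JunKO (-1.04 ± 0.18 SE, n = 2 a group, adjusted p = 0.0538, limma-trend), and Gsr, glutathione reductase, measured 73.7 and 76.3 RPKM in Scramble and 31.6 and 32.1 RPKM in JunKO (-1.21 ± 0.22 SE, n = 2 a group, adjusted p = 0.0674, limma-trend). The groups did not overlap in any of these 3, and none passed the threshold.

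Of 36 sterol and fatty acid synthesis genes 34 were tested, and 32 lay above 0 with a median of 0.94. Both JunKO libraries lay above both Scramble libraries in 30 (88.2%, against 19.4% of all models). Hmgcs1, which makes the precursor of mevalonate, measured 15.5 and 18.3 RPKM in Scramble and 40.8 and 43.4 RPKM in JunKO (1.27 ± 0.22 SE, n = 2 a group, adjusted p = 0.0603, limma-trend), just outside the threshold. The library medians of this list against Scramble were 1.01 and 0.83 in JunKO, 0.97 and 1.01 in JunDKO and 1.32 and 1.37 in Atf3KO. Those of the glutathione list were -0.52 and -0.69, -1.27 and -1.45, and -0.92 and -0.58. All of these values share the 2 Scramble libraries as their reference.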
